A study of Homo sapiens with 10 samples.

Results

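The genes described here encode core proteins of the splicing machinery and the RNA-binding proteins that steer it. They were taken as the genes whose platform symbol starts with SNRP, SF3A, SF3B, PRPF, SRSF or HNRNP, with pseudogenes left out. This gave 52 of the 14884 genes that had a named row on the arrays: 11 snRNP genes, 10 PRPF genes, 10 SR genes and 21 hnRNP genes, all protein-coding. No named row used here carried an SF3A or SF3B symbol. A gene with more than 1 row, which among these was SNRPE, was represented by the row of highest mean.

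Arrays of 5 CENPU clones (numbers 1, 4, 5, 7 and 13) and 5 control clones (numbers 1 to 5) were compared. The CENPU clones were PC-3 cells, an established line from a prostate cancer metastasis, that carried the centromere gene CENPU in a p-Lenti vector, and the control clones were PC-3 cells that carried the empty vector. All had been selected with an agent that the design text writes as blastocydin and were grown as clonal isolates, so each array stands for 1 clone and each group for clones of 1 cell line. The comparison asked which transcripts differed with CENPU overexpression.

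Introns are removed from pre-mRNA by the spliceosome, which is built from small nuclear ribonucleoproteins (snRNPs). Each is a small RNA with particle-specific proteins and, in most, a ring of Sm proteins. PRPF proteins are named after yeast pre-mRNA processing factors, and many of them act in the tri-snRNP or the catalytic complex. SR proteins bind exonic enhancers and mostly promote the use of nearby splice sites, whereas hnRNP proteins coat nascent RNA and often oppose them.

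The values were log2 expression values with medians of 4.62 to 4.76 per array. Over named rows, the arrays correlated (Pearson) at 0.955 to 0.991 among CENPU clones, 0.977 to 0.993 among control clones and 0.918 to 0.986 between the groups. CENPU averaged 9.34 ± 0.43 in CENPU clones and 6.26 ± 0.29 in control clones (SD, n = 5 each), and its lowest CENPU clone, at 8.70, lay above its highest control clone, at 6.56. Of the 16 marker genes listed for cell type, 8 had a named row. The prostate gene HOXB13 averaged 11.3 in CENPU clones and 10.9 in control clones, the epithelial keratin KRT18 10.6 and 10.8, KRT8 6.73 and 6.76, EPCAM 6.852 and 5.999, the endothelial gene PECAM1 5.38 and 5.11, the fibroblast gene DCN 2.73 and 2.81, and the prostate antigen genes FOLH1 3.06 and 2.97 and KLK3 5.57 and 5.61. The arrays came without detection calls, so low rows cannot be told apart from background.

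Few of the splicing genes passed the test between the groups. SNRPA1, SNRPD2, HNRNPA2B1 and HNRNPU rose in CENPU clones and SNRPB and HNRNPF fell, while 46 of the 52 did not pass limma's test at an adjusted p under 0.05. The rises were 1.44- to 1.71-fold, and SNRPB and HNRNPF stood at 0.680 and 0.688 of their control level. The 6 called genes are 11.5% of the 52, close to the 10.1% called among all named genes, so the count of calls does not set the splicing genes apart. The 4 that rose compare with 5.31% of all named genes called higher, and the 2 that fell with 4.79% called lower. The groups did not overlap for 7 of the 52 genes, the 6 called genes and PRPF3, against 9.73% of all named genes. CENPU clones were above in 5 of the 7 and below in 2, against 4.54% and 5.19% of all named genes.

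The splicing genes were mostly bright on the arrays, with 28 of 52 at a mean over 8 on the log2 scale. Of these 28, 4 passed (14.3%), against 22.7% of the 2432 named genes with a mean over 8. In this range 2 of the 28 splicing genes rose (7.14%), against 8.55% of the named genes, and 2 fell (7.14%), against 14.1%.

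**Figure D1:**
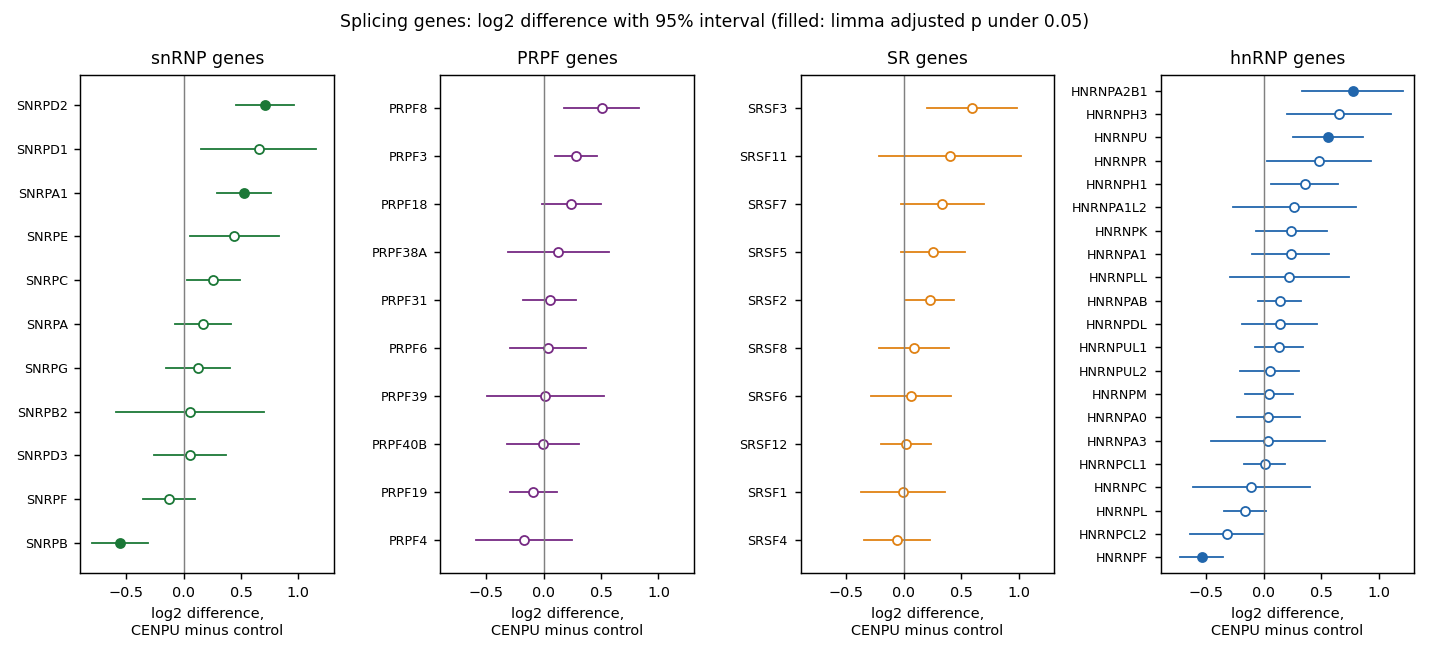
Log2 difference (CENPU minus control, horizontal axis) of each of the 52 splicing genes with its 95% interval from limma, in 4 panels by gene group and ordered by size. Filled points are the 6 genes that passed at an adjusted p under 0.05, and 41 of the 52 points lie to the right of 0.

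The Sm proteins form the ring that all major spliceosomal snRNPs except U6 share, and 7 of them were measured. Among these genes SNRPD2 rose and SNRPB fell. SNRPD2, which encodes SmD2, had log2 values of 9.95, 9.68, 9.66, 9.78 and 9.82 in CENPU clones 1, 4, 5, 7 and 13, against 9.29, 9.15, 9.24, 8.88 and 8.78 in control clones 1 to 5. Every CENPU clone was higher than every control clone. SNRPD2 thus rose by 0.71 on the log2 scale (SE 0.12), or 1.64-fold (limma adjusted p = 0.00576).

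SNRPB encodes SmB and SmB′ and gave values of 10.23, 10.21, 10.18, 10.27 and 10.09 in CENPU clones 1, 4, 5, 7 and 13, against 10.62, 10.87, 10.47, 11.05 and 10.75 in control clones 1 to 5. Every CENPU clone was lower than every control clone, and the CENPU clones were close together, with an SD of 0.065 against 0.22 in control clones. The difference was -0.56 on the log2 scale (SE 0.11, limma adjusted p = 0.0133). SNRPB and its paralog SNRPN share much of their coding sequence, so part of this signal could belong to SNRPN, which had no named row.

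SNRPD1, encoding SmD1, averaged 8.75 ± 0.47 in CENPU clones and 8.10 ± 0.35 in control clones (SD, n = 5 each), a log2 difference of 0.65 that did not pass (limma adjusted p = 0.0915). Its values spanned 8.24 to 9.36 in CENPU clones and 7.64 to 8.58 in control clones, so the groups overlapped. SNRPE had a log2 difference of 0.44 and also did not pass (limma adjusted p = 0.134). Without CENPU clone 4, the lowest CENPU clone for both genes, the difference was 0.78 for SNRPD1 (limma adjusted p = 0.0445) and 0.60 for SNRPE (limma adjusted p = 0.0209), and both passed. Neither passed in any other fit that left out 1 clone, and the limma adjusted p of SNRPD1 reached 0.203 there. The second SNRPE row, with a mean of 5.12 against 5.33 for the row used, differed by 0.10 and did not pass (limma adjusted p = 0.677). The SNRPE result therefore depends on the row chosen. SNRPD3, SNRPG and SNRPF differed by 0.05, 0.12 and -0.12, and none of the 3 passed in limma (unadjusted p from 0.255 to 0.714).

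Of the 4 proteins specific to the U1 or U2 particle, SNRPA1 rose. SNRPA1, the U2 protein that pairs with SNRPB2 on U2 RNA, had values of 6.48, 6.71, 6.74, 6.86 and 6.77 in CENPU clones 1, 4, 5, 7 and 13, against 6.23, 5.94, 6.34, 6.09 and 6.32 in control clones 1 to 5. The lowest CENPU clone lay just above the highest control clone. SNRPA1 rose by 0.53 on the log2 scale (SE 0.11), or 1.44-fold (limma adjusted p = 0.014).

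SNRPB2 itself differed by 0.06 between the group means, with a 95% interval from -0.59 to 0.70. Its CENPU clones ranged widely, from 8.74 and 8.94 in clones 1 and 4 through 9.60 in clone 5 to 10.3 in clones 7 and 13. Control clones lay between 9.28 and 9.92, inside that range. Neither U1 protein passed, with log2 differences of 0.17 for SNRPA and 0.26 for SNRPC (limma adjusted p = 0.356 and 0.141). Over the 11 snRNP genes 2 rose, 1 fell and 8 missed the threshold, and the median of their log2 differences was 0.17.

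**Figure D2:**
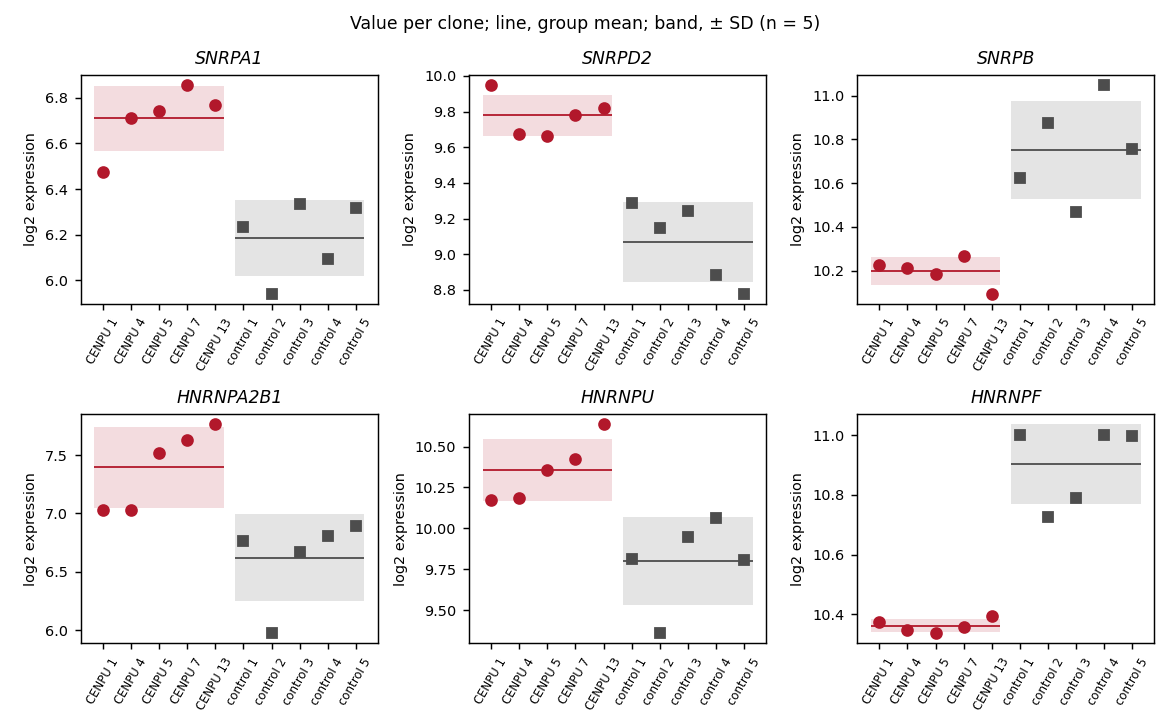
Log2 expression (vertical axis, a separate scale in each panel) of the 6 splicing genes that passed, in each CENPU clone (red circles) and each control clone (grey squares). Lines are group means and bands are ± SD (n = 5). In all 6 panels the groups do not overlap, and the CENPU clones are tightest for HNRNPF and SNRPB.

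Of the 10 PRPF genes 2 had an unadjusted p under 0.05 in limma, against 4147 of the 14884 named genes. None of the 10 PRPF genes passed. The nearest was PRPF3, a protein of the U4/U6 particle, with 7.74, 7.76, 7.87, 7.86 and 7.85 in CENPU clones 1, 4, 5, 7 and 13, against 7.67, 7.38, 7.48, 7.57 and 7.57 in control clones 1 to 5. The groups did not overlap, but the log2 difference of 0.28 did not pass (limma adjusted p = 0.0511). It passed without CENPU clone 1, the lowest CENPU clone (0.30, limma adjusted p = 0.0422), and without control clone 1, the highest control clone (0.32, limma adjusted p = 0.0462). In the other fits that left out 1 clone it did not pass (limma adjusted p up to 0.119).

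PRPF8, the large U5 protein at the catalytic centre, averaged 11.1 ± 0.20 in CENPU clones and 10.6 ± 0.30 in control clones (SD, n = 5 each). Its lowest value, 10.1, was in control clone 2, and the values of control clone 1 (10.91) and CENPU clone 5 (10.86) crossed. The log2 difference was 0.50 (limma adjusted p = 0.0536). Without control clone 1, the highest control clone, it was 0.59 and passed (limma adjusted p = 0.0358). In the other fits that left out 1 clone PRPF8 did not pass (limma adjusted p up to 0.11). PRPF18, which acts at the step that joins exons, differed by 0.24 (limma adjusted p = 0.204), and PRPF19, the ubiquitin ligase of the PRP19 complex, by -0.09 (limma adjusted p = 0.557). The other 6, PRPF4, PRPF6, PRPF31, PRPF38A, PRPF39 and PRPF40B, lay between -0.17 and 0.13.

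Of the 10 SR genes 2 had an unadjusted p under 0.05 in limma, against 4147 of the 14884 named genes. None of the 10 SR genes passed either. SRSF3, a small SR protein that also serves mRNA export, had the largest log2 difference among them, 0.60 (limma adjusted p = 0.0555). Its values were 9.50, 9.21, 9.40, 9.79 and 9.90 in CENPU clones 1, 4, 5, 7 and 13, against 9.27, 8.45, 8.81, 8.99 and 9.28 in control clones 1 to 5. Control clone 2 was lowest and CENPU clone 13 highest, and CENPU clone 4 lay below control clones 1 and 5. SRSF3 passed without CENPU clone 4, its lowest CENPU clone (0.69, limma adjusted p = 0.034), and without control clone 1 (0.68, limma adjusted p = 0.0476). In the other fits that left out 1 clone it did not pass (limma adjusted p up to 0.13).

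SRSF2, which binds exonic enhancers, differed by 0.23, SRSF7, an SR protein with a zinc knuckle, by 0.34, and SRSF5 by 0.25 (limma adjusted p from 0.148 to 0.218). SRSF1, the founding member of the family, averaged 10.549 ± 0.29 in CENPU clones and 10.552 ± 0.29 in control clones (SD, n = 5 each), and the 95% interval of its difference ran from -0.37 to 0.36. SRSF11 had the widest spread of the family in CENPU clones, from 5.41 in clone 1 to 7.11 in clone 13, with control clones at 5.22 to 5.90. SRSF4, SRSF6, SRSF8 and SRSF12 differed by -0.06 to 0.09.

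Among 21 hnRNP genes, HNRNPA2B1 and HNRNPU rose, HNRNPF fell and 18 missed the threshold, and the median of their log2 differences was 0.14. HNRNPF binds runs of G and is a close relative of HNRNPH1 and HNRNPH3. It had values of 10.375, 10.346, 10.338, 10.359 and 10.394 in CENPU clones 1, 4, 5, 7 and 13, against 10.999, 10.726, 10.789, 11.002 and 10.995 in control clones 1 to 5. The CENPU clones were almost level, with an SD of 0.023, and all lay below the control clones. HNRNPF fell by 0.54 on the log2 scale (SE 0.086), with the smallest adjusted p of the 52 genes (limma adjusted p = 0.00485).

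Both relatives of HNRNPF had differences of the opposite sign. HNRNPH3 averaged 8.31 ± 0.37 in CENPU clones and 7.65 ± 0.38 in control clones (SD, n = 5 each), a log2 difference of 0.66 that did not pass (limma adjusted p = 0.0653). Without CENPU clone 1, its lowest CENPU clone, the difference was 0.79 and passed (limma adjusted p = 0.0212). In the other fits that left out 1 clone HNRNPH3 did not pass (limma adjusted p up to 0.148). HNRNPH1 averaged 6.51 ± 0.14 in CENPU clones and 6.15 ± 0.28 in control clones, a log2 difference of 0.36 that did not pass (limma adjusted p = 0.113).

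HNRNPA2B1, which packages nascent transcripts together with hnRNP A1, had the largest rise of the splicing genes, 1.71-fold. Its values were 7.03, 7.03, 7.52, 7.63 and 7.77 in CENPU clones 1, 4, 5, 7 and 13, against 6.76, 5.97, 6.67, 6.81 and 6.89 in control clones 1 to 5. Control clone 2 stood apart below the other control clones, and CENPU clones 1 and 4 lay close to the upper control clones. Its log2 difference of 0.77 had a standard error of 0.20 (limma adjusted p = 0.033). It no longer passed without control clone 2 (0.61), 3 (0.79) or 4 (0.82), or without CENPU clone 5 (0.74), 7 (0.71) or 13 (0.68), with limma adjusted p from 0.0591 to 0.0818.

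HNRNPU, also known as scaffold attachment factor A, had values of 10.18, 10.19, 10.36, 10.43 and 10.64 in CENPU clones 1, 4, 5, 7 and 13, against 9.82, 9.36, 9.95, 10.07 and 9.81 in control clones 1 to 5. All CENPU clones were above all control clones, and control clone 2 was again the lowest. HNRNPU rose by 0.56 on the log2 scale (SE 0.14), or 1.47-fold (limma adjusted p = 0.0298). It no longer passed without control clone 2 (0.45) or 5 (0.56), or without CENPU clone 5 (0.56), 7 (0.54) or 13 (0.49), with limma adjusted p from 0.0548 to 0.0703. HNRNPR, with 0.48, and HNRNPCL2, with -0.32, had the next largest differences beyond HNRNPH1 and did not pass (limma adjusted p = 0.16 and 0.175). The named row of HNRNPA1 differed by 0.23 and did not pass (limma adjusted p = 0.345), and HNRNPA1 has near-identical processed copies whose rows were not counted here.

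**Figure D3:**
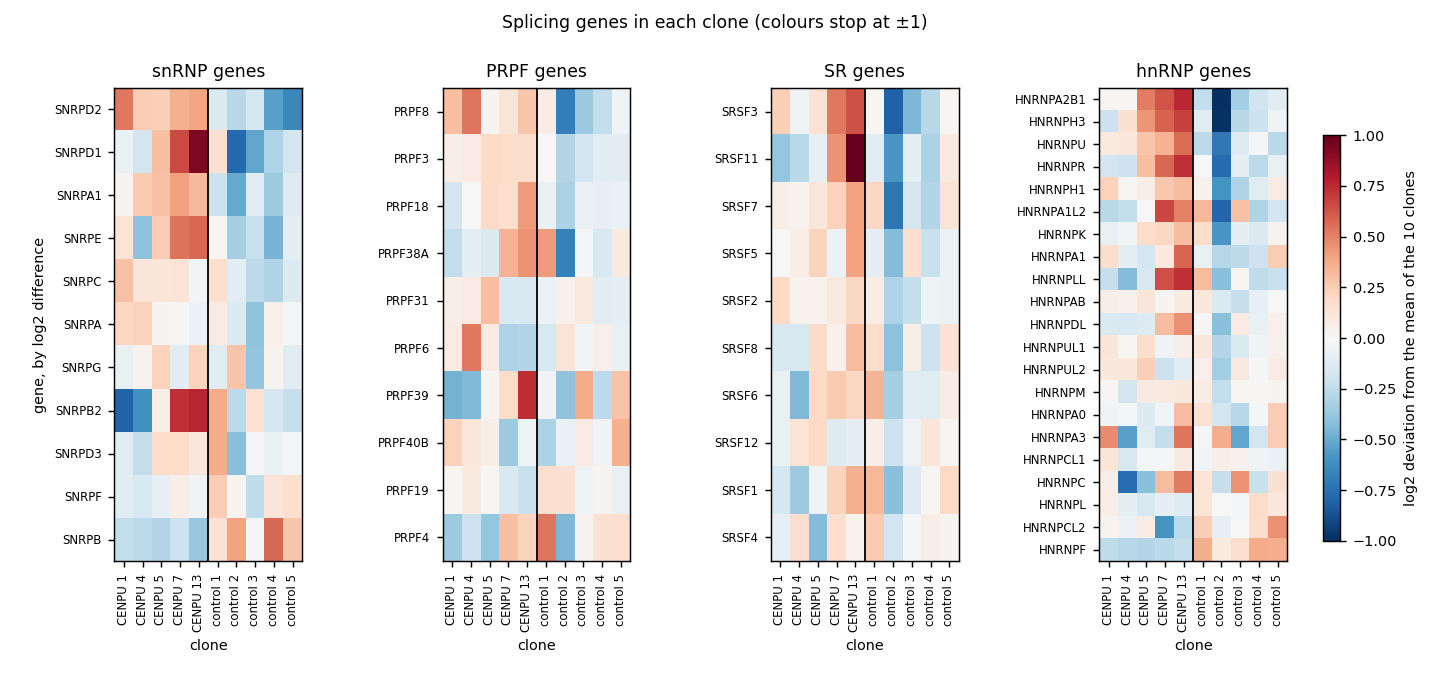
Log2 deviation of each splicing gene (rows, ordered by log2 difference within 4 panels) from its own mean over the 10 clones, in each CENPU and control clone (columns, parted by the black line). Red is above and blue below the gene's mean, and colours stop at ±1. CENPU clone 13 is the reddest column and control clone 2 the bluest, most of all among SR and hnRNP genes.

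The level of the splicing genes varied from clone to clone within each group. The median over the 52 genes of the deviation from the mean of all clones was 0.01, -0.04, 0.08, 0.16 and 0.31 in CENPU clones 1, 4, 5, 7 and 13, against 0.07, -0.31, -0.09, -0.11 and 0.02 in control clones 1 to 5. The groups overlapped, with control clone 1 above CENPU clones 1 and 4. These medians averaged 0.10 ± 0.14 in CENPU clones and -0.08 ± 0.15 in control clones (SD, n = 5 each). Of the 52 genes 26 had their highest value in CENPU clone 13, 28 (53.8%) their lowest in control clone 2 and 19 (36.5%) both, where 20.8%, 20.7% and 12.6% of all named genes did so.

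By gene group these counts differed, without a test between groups. In 7 of 10 SR genes the highest value was in CENPU clone 13 and in 8 the lowest was in control clone 2, and among 21 hnRNP genes these counts were 13 and 12. The snRNP genes had 3 of 11 for each and the PRPF genes 3 and 5 of 10. SR medians were 0.33 in CENPU clone 13 and -0.41 in control clone 2. The PRPF medians were the 1 group whose clones did not overlap, with 0.04 to 0.20 in CENPU clones and -0.31 to -0.02 in control clones, although no PRPF gene passed. The PRPF genes also had the smallest median log2 difference of the groups, 0.04, and it was -0.02 after quantile normalization.

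**Figure D4:**
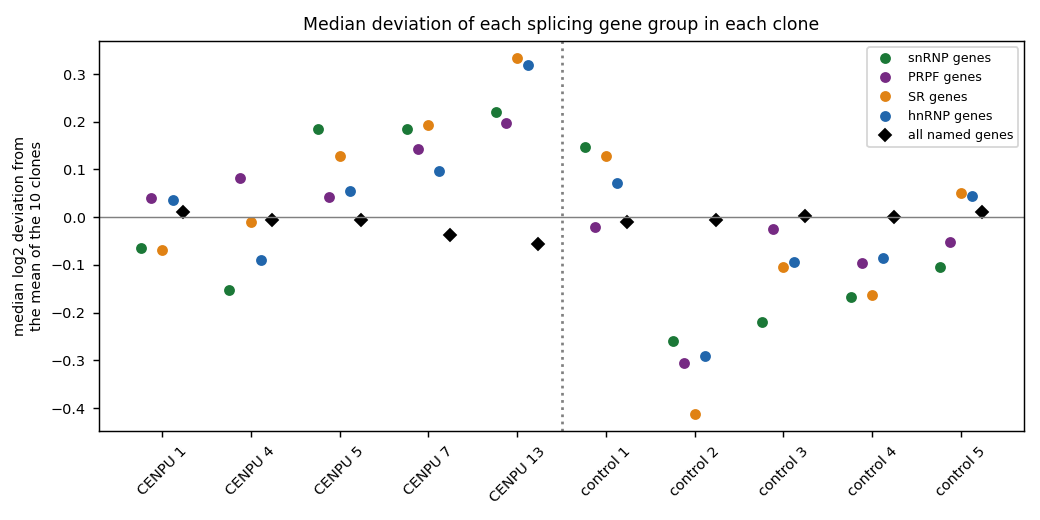
Median log2 deviation (vertical axis) of the snRNP, PRPF, SR and hnRNP genes and of all named genes in each clone, CENPU clones left of the dotted line and control clones right of it. The medians of all named genes lie within 0.06 of 0, whereas the SR median spans -0.41 in control clone 2 to 0.33 in CENPU clone 13.

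Set side by side, the median log2 difference was 0.17 in snRNP genes, 0.04 in PRPF genes, 0.16 in SR genes and 0.14 in hnRNP genes, and it was -0.02 over all named genes. The difference was above 0 in 9 of 11, 7 of 10, 8 of 10 and 17 of 21 genes, 41 of 52 in all, against 46.9% of all named genes. After quantile normalization of the arrays 34 of the 52 were above 0, the PRPF median was -0.02 and the median over the 52 genes fell to 0.06. Without control clone 2 and CENPU clones 7 and 13 the medians were 0.21 in snRNP genes, 0.09 in PRPF genes, -0.02 in SR genes and 0.03 in hnRNP genes, and 30 of 52 differences were above 0. The clones left out had the highest medians over the 52 genes among CENPU clones (0.16 and 0.31) and the lowest among control clones (-0.31). Leaving them out narrows the gap between the groups by choice of clones, so that fit is no independent check. No test was run between the gene groups.

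Those 3 clones stand at the ends of a trend of expression with the genomic span of genes across the arrays. Spearman's correlation between span and a clone's deviation, over 11916 protein-coding genes, was 0.316 in CENPU clone 7, 0.360 in CENPU clone 13 and -0.355 in control clone 2. With this trend removed from each array by loess, the 6 called genes passed again in limma, SRSF3 also rose (0.64, limma adjusted p = 0.0404), and the median over the 52 genes was 0.13. In that fit 37 of the 52 differences were above 0, against 41 in the main fit, and the median over all named genes was -0.04. The splicing genes are short, with a median span of 15394 bases against 26723.5 for protein-coding genes. Their log2 differences did not follow span, with Spearman's correlation of -0.05 over the 52 genes against 0.33 over the protein-coding genes. Both correlations run across genes measured on the same arrays and are given as a description. The share of the trend in the differences of the splicing genes was not tested. Without the 3 clones, SNRPD2 and HNRNPF passed in limma, with differences of 0.71 and -0.59, and SNRPB (-0.52), SNRPA1 (0.40), HNRNPU (0.33) and HNRNPA2B1 (0.41) did not.

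The 250 bases before the RefSeq start of 4 genes are shown because, within the Sm genes and within the hnRNP genes, one member rose and another fell. They are from GRCh38.p14, written 5′ to 3′ on the gene's strand, and capitals mark matches on either strand to CCGGAAG (bound by ETS factors), GGGCGG (SP and KLF factors), CCAAT (NF-Y) or TTTGAA (the CHR element of cell cycle genes).
SNRPD2 (chr19:45692317-45692566, strand -): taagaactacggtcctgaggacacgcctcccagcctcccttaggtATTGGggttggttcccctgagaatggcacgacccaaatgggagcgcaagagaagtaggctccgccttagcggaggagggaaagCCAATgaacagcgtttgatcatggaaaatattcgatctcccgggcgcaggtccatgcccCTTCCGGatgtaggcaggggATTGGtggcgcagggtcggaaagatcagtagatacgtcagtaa
SNRPB (chr20:2470790-2471039, strand -): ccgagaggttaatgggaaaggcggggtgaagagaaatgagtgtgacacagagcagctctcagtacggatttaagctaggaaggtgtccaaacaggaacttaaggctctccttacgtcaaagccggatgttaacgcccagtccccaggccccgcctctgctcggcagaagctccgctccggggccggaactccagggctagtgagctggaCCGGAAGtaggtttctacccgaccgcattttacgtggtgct
HNRNPU (chr1:244864544-244864793, strand -): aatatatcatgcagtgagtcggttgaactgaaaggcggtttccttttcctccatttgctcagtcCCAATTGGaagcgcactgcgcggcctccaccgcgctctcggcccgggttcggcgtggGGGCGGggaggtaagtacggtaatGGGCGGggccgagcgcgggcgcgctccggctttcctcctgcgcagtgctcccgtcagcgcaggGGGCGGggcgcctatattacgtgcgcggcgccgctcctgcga
HNRNPF (chr10:43408858-43409107, strand -): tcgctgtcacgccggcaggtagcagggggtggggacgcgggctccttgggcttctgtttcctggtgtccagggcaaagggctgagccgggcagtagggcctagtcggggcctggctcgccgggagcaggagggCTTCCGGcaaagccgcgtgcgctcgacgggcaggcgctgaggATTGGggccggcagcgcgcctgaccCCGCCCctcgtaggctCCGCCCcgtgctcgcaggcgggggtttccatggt

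The ETS letters occur before SNRPD2, SNRPB and HNRNPF, which differ in direction, and the CCAAT letters before SNRPD2, HNRNPU and HNRNPF. In HNRNPU a match on each strand overlaps in 1 run of capitals. Of the splicing genes 47 had an entry in the promoter table, and 13 of these (27.7%) held CCGGAAG, against 11.8% of 15843 protein-coding promoters and 8.82% of all 27305. CCAAT was in 25 (53.2%), against 34.5% and 33.0%, and GGGCGG in 26 (55.3%), against 56.0% and 42.3%. TTTGAA was in 4 (8.51%), against 10.8% and 13.6%. The YY1 motif AAGATGGC and the NRF1 motif were also searched and were in 0 of 47, against 1.39% and 1.48% of protein-coding promoters and 1.37% and 1.13% of all. A match is a description of the letters in this window and not a site.

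The other genes of the splicing pathway were counted in lists that do not share the 6 name stems. Of 160 listed genes 122 were measured, 23 rose, 8 fell and 91 missed the threshold, and the median of the log2 differences was 0.20. The 31 called genes are 25.4% of the 122, against 10.1% of all named genes. By direction 18.9% were higher and 6.56% lower, against 5.31% and 4.79% of all named genes. The listed genes were brighter than most, with a median level of 7.71 against 5.82, and 47 had a mean over 8. Of named genes with a mean over 8, 22.7% were called, 8.55% higher and 14.1% lower. Of protein-coding genes 11.7% were called, 6.23% higher and 5.43% lower. The PRP19 complex and catalytic spliceosome had 7 of 24 measured genes higher and 0 lower. AQR, the intron-binding helicase, averaged 8.65 ± 0.68 in CENPU clones and 6.81 ± 0.27 in control clones (SD, n = 5 each), a log2 difference of 1.84 (limma adjusted p = 0.00416). CDC5L and PLRG1, core proteins of the PRP19 complex, rose by 1.27 and 0.96, and SNW1, CWC22, DHX8 and BUD31 by 1.21, 1.16, 0.80 and 0.42. Several of these genes are long, with spans of 117961 bases for AQR, 62720 for CDC5L, 62422 for CWC22, 60825 for DHX8 and 43558 for SNW1. PLRG1 and BUD31 span 15396 and 10648, and the median of protein-coding genes is 26723.5. The lists were not fitted with the span trend removed, so its share in their differences was not tested.

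SR-related proteins, which carry arginine and serine repeats without being classical SR proteins, had 6 of 19 higher and 2 lower. SON, a nuclear speckle protein, rose by 1.32, BCLAF1 by 1.16, RBM25 by 1.05, THRAP3 by 0.64, TRA2A by 0.56 and SRRM2 by 0.37, while RSRP1 and SCAF1 fell, by 1.28 and 0.52. Of 8 SR protein kinase genes, CLK1 and DYRK1A rose, by 0.82 and 0.73. In the fits that left out 1 clone, 3 kinase genes were higher in limma without CENPU clone 1 or 4, and 0 without any of the other 8 clones. The classical SR genes, whose products these kinases phosphorylate, had 0 calls in 10, and whether the lists differ was not tested.

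A list of 22 genes headed as further U1, U2 and U5 snRNP genes also held genes of other particles, such as SNRNP48 and PPIH. In it DHX15, SNRNP200 and LUC7L2 rose, by 1.53, 0.95 and 0.44, and PHF5A and SNRNP70 fell, by 0.68 and 0.44. The LUC7L2 row was dim, with a mean of 4.41 over the 10 clones. SNRNP200 is the U5 helicase that unwinds the U4/U6 duplex, PHF5A a subunit of the SF3B complex and SNRNP70 a U1 protein. Among 6 genes listed under 3′ splice site recognition, U2AF2, the large subunit of U2AF, and PUF60 fell, by 0.60 and 0.62, and 0 rose. In snRNP assembly COIL, the scaffold of Cajal bodies, and GEMIN5 rose, by 1.01 and 0.76, among 14 measured genes. Of 22 other splicing regulators PTBP2, MBNL3 and RBM5 rose, by 0.83, 0.51 and 0.50, and RBM10 fell by 0.42. The MBNL3 row was dim, with a mean of 4.00 over the 10 clones. Of 7 genes listed under the exon junction complex, ALYREF fell by 0.44. None of the 10 LSM genes listed had a named row.

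These counts moved with single clones. Over the fits without 1 clone, 8 to 39 of the 122 genes were higher and 3 to 9 lower, and in the PRP19 list 3 (without CENPU clone 7) to 11 (without CENPU clone 1) were higher. The counts over all 14884 named genes moved as well, with 297 to 1463 higher and 316 to 1008 lower (4.12% to 16.6% called in all). Without control clone 2 and CENPU clones 7 and 13, 209 of all named genes were higher and 261 lower (3.16% called). Of the 122 genes, 7 were higher and 2 lower in that fit, and the median was 0.06. AQR (1.33), DHX8 (0.67), SNW1 (0.81), DHX15 (1.01), SNRNP200 (0.83), SON (0.90) and COIL (0.69) were the 7, and U2AF2 (-0.54) and RSRP1 (-1.30) the 2 (limma adjusted p from 0.0133 to 0.0407).

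**Figure D5:**
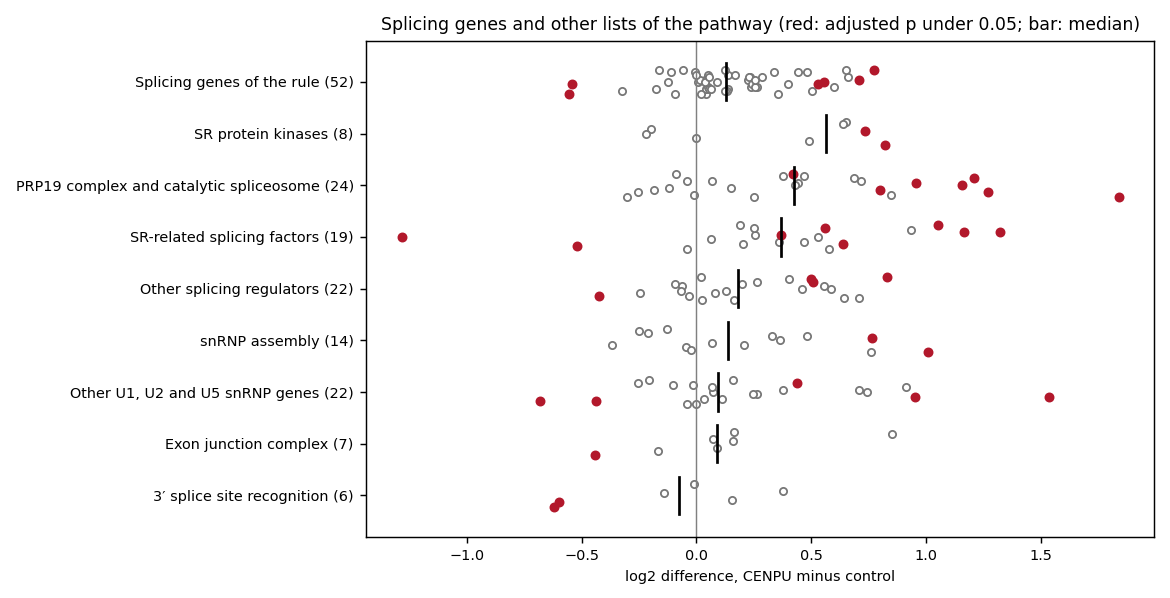
Log2 difference (CENPU minus control, horizontal axis) of the 52 splicing genes and of 8 other lists of splicing pathway genes, 1 list per line with its number of measured genes. Each point is a gene, red points passed in limma at an adjusted p under 0.05, and black bars are list medians. The 52 genes lie between -0.56 and 0.77, a narrower range than that of the PRP19 and SR-related lists.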

How the data were processed

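RNA of 10 PC-3 clones was measured on 1-channel Affymetrix arrays after biotin labelling, per the labels' protocols. The log2 expression values used were deposited by the authors, with 53617 rows and 1 column per clone. The submitters' processing notes list Partek and RMA and give no versions, and values from 1.65 to 15.0 were read as log2. RMA corrects background, equalises array quantiles and summarises probes, so it takes away shifts common to all genes, and differences of dim rows can be understated. Arrays have no total count, and the number of clones limits the precision.

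A platform table gave 1 symbol for 16098 rows and several for 0, and gene type and span came from RefSeq (GRCh38.p14) by gene ID. The symbol rule found 60 rows, of which 7 were pseudogene rows and 53 belonged to the 52 genes. The sources used here do not name the build of the array annotation. The test was limma's lmFit and eBayes (limma 3.58.1, R 4.3.3) without covariates, with p-values adjusted by Benjamini-Hochberg across the 16098 named rows and a threshold of 0.05. Since clones are separate isolates of 1 line, the p-values reflect clone-to-clone spread only.

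Members, lists and tests were chosen with earlier results of these data known. Genes were named if they passed, had groups that do not overlap, had an outlying clone, or were among the 4 smallest p of their group. Others named with values were picked after seeing them. Simulated data were used to test the fit. Alternatives were other normalizations, filters, variance models, thresholds, row choices, a block by clone number, removal of the span trend, and leaving out clones.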

Additional observations from a re-analysis of the deposited data

Results flagged for a closer look

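In groups of 5 clones, a clone is set out here when its gap to the nearest other clone takes up more than 0.71 of the group's range. This held in 6 of the 104 sets of values (52 genes in 2 groups), and chance gives about 1 in 20. Control clone 2 was the low clone in 5 of them. It had 10.7 for HNRNPM, with the other control clones at 10.97 to 11.03, 6.99 for HNRNPH3 (7.70 to 7.95), 7.22 for HNRNPUL2 (7.54 to 7.65), 5.97 for HNRNPA2B1 (6.67 to 6.89) and 4.19 for PRPF18 (4.42 to 4.44). CENPU clone 13 was the high clone for HNRNPA0, at 9.07, with the other CENPU clones at 8.62 to 8.75. HNRNPM, HNRNPUL2 and HNRNPA0 differed between the groups by 0.04, 0.05 and 0.04 and did not pass in limma.

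Pseudogene rows lay outside the comparison, and both rows of HNRNPA1P10 rose in CENPU clones. One averaged 7.68 ± 0.15 in CENPU clones and 6.80 ± 0.28 in control clones (SD, n = 5 each), a log2 difference of 0.88 (limma adjusted p = 0.00425). The other averaged 12.02 ± 0.15 in CENPU clones and 11.5 ± 0.18 in control clones (SD, n = 5 each), a log2 difference of 0.49 (limma adjusted p = 0.0218). In both rows the groups did not overlap. HNRNPA1P10 is a processed copy of HNRNPA1, and the signal cannot be assigned to the copy or to its parent. The other 5 pseudogene rows had differences of -0.13 to 0.31 and did not pass.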

How the results depend on the processing

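Among all named genes 1504 passed, and among the splicing genes 4 rose and 2 fell. At a threshold of 0.01 these counts were 253, 1 and 1, and at 0.10 they were 2588, 9 and 2. With rows of mean under 5 left out, 7 of the 45 remaining splicing genes rose and 2 fell (20% called), against 16.6% called of the 9715 remaining named genes. Without CENPU clones 7 and 13 and control clone 2 the counts were 470, 1 and 1, and fewer clones enter that fit. Over the fits that left out 1 clone, 613 to 2471 named genes passed, 2 to 7 splicing genes rose and 2 fell in each. The lowest count of rises, 2, came without CENPU clone 5, 7 or 13 or without control clone 2, and the highest, 7, without CENPU clone 4 or control clone 1. SNRPD2, SNRPB, SNRPA1 and HNRNPF passed in all 10 of these fits, HNRNPU in 5 and HNRNPA2B1 in 4. Each of the 6 called genes kept its sign under all 22 alternatives. Changes of threshold, of the rows tested or of the eBayes settings leave a gene's difference as it is and could not change a sign. The same 6 passed after quantile normalization, after median centring and with all rows of the table tested. They also passed with the mean of a gene's rows, which leaves the values of these 6 unchanged because each has 1 row.

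Clone numbers 1, 4 and 5 occur in both groups, but the clones are separate isolates. Deviations of same-numbered clones correlated at -0.37, 0.10 and 0.02, and 1 of the 6 clones, CENPU clone 5, correlated best with its own number, so the numbers do not pair the samples. With clone number as a replicate block, 55 named genes passed, 0 splicing genes rose and 0 fell in limma, the SR median was -0.030 and the hnRNP median -0.019. Only the 3 shared numbers inform that fit. PRPF19, which did not pass in any fit, differed by -0.09 with all clones, by 0.0077 under the block and by 0.027 without the 3 clones. Rows near background limit what can be seen, and 7 of the 52 splicing genes had a mean under 5.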
